A study of Mus musculus with 8 samples.

Results

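The 36 genes described here encode the machinery of glucose uptake and glycolysis and a set of transcripts that low oxygen induces through hypoxia-inducible factor (HIF). They are a list of gene names, drawn up with earlier results of these data known; the rule itself uses no measured value. All 36 had a row among the 54838 gene identifiers of the count files, and 35 were among the 13903 genes with enough reads to be tested; *Ldhb* was not. The RNA came from mouse spleen natural killer (NK) cells, sorted as CD45+, CD49b+ and CD3-. The hNK group (4 libraries) was prepared from WT FVB/n mice, which were healthy. The teNK group (4 libraries) came from MMTV-PyMT mice, which the series design calls tumour-bearing and in which a mammary promoter drives the polyoma middle T oncogene. Cells of both groups spent 12 to 16 h in medium with cytokines before RNA extraction, so the values describe cultured cells. For the ages of the mice, the genetic background on which MMTV-PyMT was kept, the cytokines used and how many animals went into a library, nothing was stated in the sources used here.

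Glycolysis splits glucose into pyruvate and yields ATP without oxygen. Hexokinase traps the sugar in the cell, phosphofructokinase commits it to the pathway, aldolase splits the sugar, and lactate dehydrogenase with the monocarboxylate transporters disposes of the pyruvate as lactate. HIF-1, a dimer whose alpha subunit is destroyed in the presence of oxygen after prolyl hydroxylation, binds short ACGTG or GCGTG elements and raises many of these genes. NK cells are known to increase glycolysis when cytokines activate them.

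In teNK the 36 genes did not move as a block. Of the 35 tested, 13 rose, 9 fell and 13 did not pass the test (edgeR quasi-likelihood test, adjusted p under 0.05 after Benjamini-Hochberg adjustment over all 13903 genes, as for every adjusted p here unless another test is named). Across all genes tested, 26.4% rose and 25.6% fell, or 51.9% in either direction. The median log2 fold change of the members was -0.03 and that of all genes -0.02, and the median absolute log2 fold change was 0.38 for the members and 0.32 for all genes. The groups did not overlap in 19 members, and in 46.5% of all genes. Of the 35, 4 were called and changed by at least 2-fold, against 14.1% of all genes: *Slc2a3*, *Hk3* and *Vegfa* rose and *Aldoa* fell. *Hk3* passed the read filter in 1 hNK and 4 teNK libraries, so it entered the test through the group where it was high, and its place in these counts supports nothing by itself. Those 4 were also the members called when the test was against a 1.5-fold change. With libraries scaled by their total alone, which shifted the log2 fold change of the median gene by -0.13, 9 members were higher and 12 lower (42.9% of the called members higher, against 59.1% with TMM scaling). Over all genes that scaling gave 2709 higher and 5114 lower (34.6% of the called genes higher, against 50.7%), so the shift was seen over all genes too. Under it *Bnip3l*, *Pfkfb3*, *Pfkm* and *Slc16a3* lost their call and *Eno1*, *Hif1a* and *Hk2* gained one for a fall. The 22 called members kept their direction under each of the 20 alternatives that gave them a value.

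**Figure D1:**
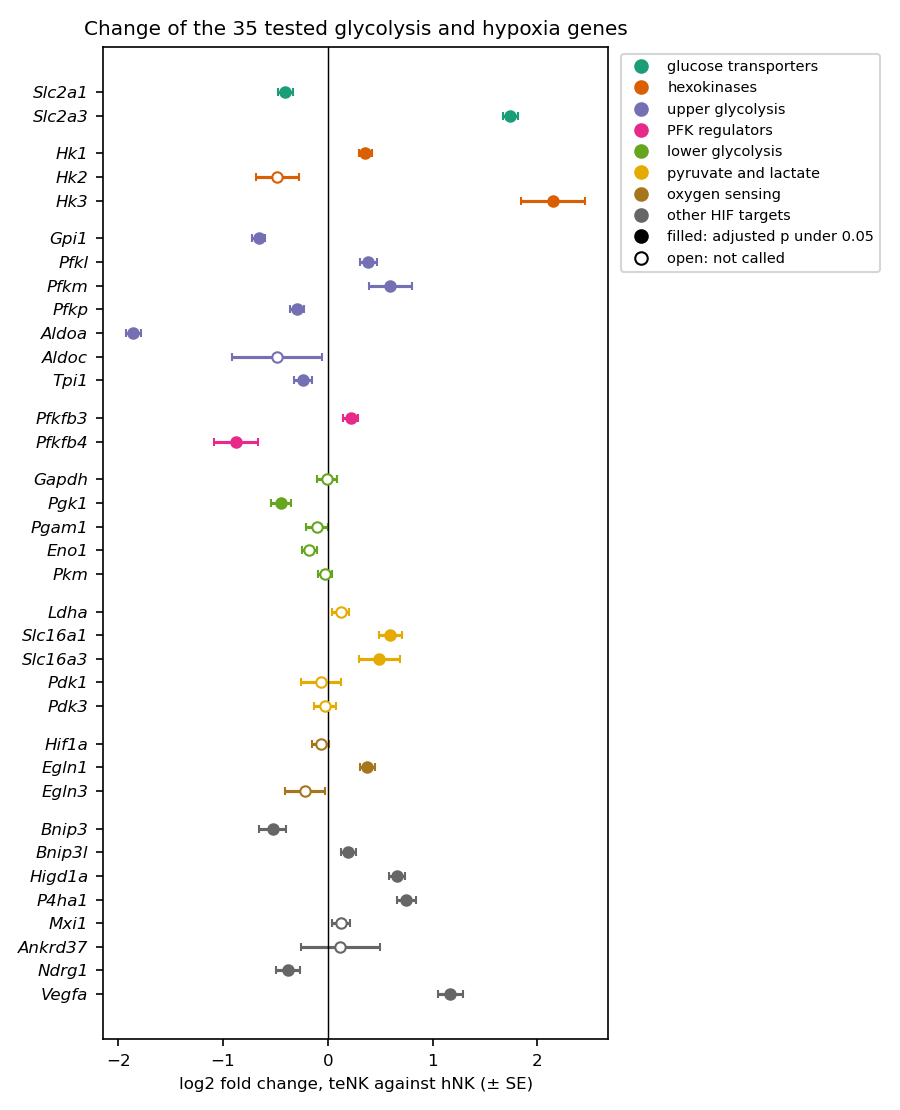
Log2 fold change of teNK against hNK for the 35 tested members, ordered by role, with the standard error as bars; filled points passed the adjusted p threshold and open points did not. *Slc2a3*, *Hk3* and *Vegfa* lie above 1 and *Aldoa* lies below -1, while the other 31 members lie between.

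The reads on genes numbered 5202131 to 12419324 in hNK and 13111043 to 16209895 in teNK, and levels are given as CPM, read counts relative to the TMM-scaled library total. A gene with 3 counts therefore stood at 0.238 to 0.542 CPM in an hNK library and at 0.191 to 0.241 CPM in a teNK library. The hNK and teNK libraries separated along the first principal component (77.0% of the variance). The labels of the teNK libraries mention technical replicates and those of hNK do not, so this difference in layout and the groups cannot be told apart. The NK list held 11 genes, among them the sort markers *Ptprc* (CD45, found on all leukocytes) and *Itga2* (CD49b). The other 9 were read in both groups, at a summed 4616 to 5318 CPM in hNK and 8402 to 9104 CPM in teNK. Of the 11, 10 rose and *Eomes* fell. Markers of several other cells were also higher in teNK. Of 10 platelet genes 9 rose (19.6 to 43.9 CPM summed in hNK, 154 to 264 CPM in teNK), and of 10 B cell genes 9 rose (2.33 to 11.05 against 39.5 to 63.4 CPM without *Ighm*, which was not called). The 10 neutrophil genes, none with enough reads to be tested, summed to 0 to 0.165 CPM in hNK and 1.71 to 7.70 CPM in teNK; *Ly6g*, *Camp* and *Retnlg* had no read in any library. The 10 macrophage and monocyte genes, of which *Lyz2* rose, summed to 4.05 to 5.99 and 10.1 to 14.5 CPM, and the 9 erythroid genes with a row to 0 to 0.542 and 2.81 to 11.05 CPM, with *Hba-a2* at 0 in every library. The 10 T cell genes summed to 36.2 to 61.8 and 51.1 to 64.1 CPM, and of the 6 tested *Cd3d* and *Lat* rose and *Cd6* fell. In bulk RNA, fewer cells of a type and less RNA per cell cannot be told apart, and the part of these other cells in the changes below was not tested.

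Promoter sequence bears on these genes because HIF binds the elements named above. The windows below run from 250 bases upstream to the base before an annotated start, in 5′ to 3′ direction of the gene (RefSeq, GRCm38.p6). They were sought for the 3 called members with the largest rise (*Slc2a3*, *Vegfa*, *P4ha1*) and the 3 with the largest fall (*Aldoa*, *Gpi1*, *Bnip3*) at a mean level of at least 2 log2 CPM, and are printed where at most 30 bases of the window lay in annotated exons; for *Aldoa* that was the second start. *Slc2a3*, *Bnip3l* and *Ndrg1* had no entry in the promoter table. Capitals mark ACGTG and GCGTG on either strand, which on the other strand read CACGT and CACGC; in CACGTG the strands' matches overlap.
*P4ha1*, chr10:59323046-59323295, + strand: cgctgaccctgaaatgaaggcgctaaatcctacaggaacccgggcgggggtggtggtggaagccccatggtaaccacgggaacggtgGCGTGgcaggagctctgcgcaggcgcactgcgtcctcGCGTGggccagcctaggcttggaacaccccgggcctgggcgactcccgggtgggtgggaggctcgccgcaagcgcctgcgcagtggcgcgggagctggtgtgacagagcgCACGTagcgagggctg
*Vegfa*, chr17:46032378-46032627, - strand: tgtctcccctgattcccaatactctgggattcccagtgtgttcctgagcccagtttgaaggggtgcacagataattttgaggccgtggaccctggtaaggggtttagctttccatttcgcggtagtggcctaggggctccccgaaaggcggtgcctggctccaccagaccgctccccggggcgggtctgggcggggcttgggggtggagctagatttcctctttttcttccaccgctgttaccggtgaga
*Bnip3*, chr7:138909507-138909756, - strand: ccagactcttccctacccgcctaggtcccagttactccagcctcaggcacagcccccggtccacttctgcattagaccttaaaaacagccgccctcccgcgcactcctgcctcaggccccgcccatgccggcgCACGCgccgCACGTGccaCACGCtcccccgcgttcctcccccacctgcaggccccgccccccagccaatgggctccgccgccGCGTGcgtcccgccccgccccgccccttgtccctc
*Aldoa*, second start, chr7:126799255-126799504, - strand: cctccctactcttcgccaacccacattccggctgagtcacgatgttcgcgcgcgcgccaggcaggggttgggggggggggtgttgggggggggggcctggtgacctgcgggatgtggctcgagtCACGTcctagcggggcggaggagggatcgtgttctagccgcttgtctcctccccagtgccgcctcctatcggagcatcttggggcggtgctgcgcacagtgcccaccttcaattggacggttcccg
The *P4ha1* window held 3 matches, 163, 126 and 16 bases upstream of the start, and the *Bnip3* window held 5, at 117, 108, 107, 99 and 35 bases. In the *Aldoa* window there was 1 match, at 126 bases, and in the *Vegfa* window there was none. Other starts of both genes, not printed because of their exon bases, differed. The first *Aldoa* start held no match and the third held 1, at 202 bases. A second *Vegfa* start held 2, at 218 and 211 bases. Of the 33 members in the promoter table, 26 (78.8%) held at least 1 match in the window of their first start, against 57.7% of genes tested and 38.6% of all genes in the table. Among those 33, the share was 9 of 11 for members that rose, 5 of 8 for members that fell and 11 of 13 for members not called, with *Ldhb*, not tested, as the remaining one. The members were listed partly as HIF targets, so their higher share may follow from that choice and is a description only. A match describes letters in this window and not a bound site.

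The glucose transporters moved in opposite directions. *Slc2a3* (ENSMUSG00000003153, chr6:122727809-122801640, - strand) encodes GLUT3, a high-affinity transporter. Its level was 38.2, 42.96, 43.5 and 35.4 CPM in hNK 1 to 4 and 137, 137, 136 and 126 CPM in teNK 1 to 4. Every teNK library lay above every hNK library. Within teNK, teNK 4 was the lowest, as it was for the summed platelet genes (154 CPM). Within hNK the platelet sum was highest in hNK 4 (43.9 CPM), where *Slc2a3* was lowest. It was lowest in hNK 3 (19.6 CPM), where *Slc2a3* was highest. A link with platelet RNA was not tested. The log2 fold change was 1.74 (SE 0.07, adjusted p = 7.29e-12), a 3.34-fold rise. *Slc2a1* (ENSMUSG00000028645, chr4:119108711-119137983, + strand) encodes GLUT1, a classic HIF target. It stood at 52.3, 59.5, 55.9 and 50.6 CPM in hNK and 42.8, 39.4, 40.6 and 42.5 CPM in teNK, with no overlap, and fell by 0.40 on the log2 scale (SE 0.07, adjusted p = 1.69e-04). Per kb of exon, which allows levels of different genes to be compared, *Slc2a1* was above *Slc2a3* in hNK (15.6 ± 1.13 against 5.52 ± 0.539 CPM per kb, SD, n = 4). In teNK the order was turned, with 11.8 ± 0.458 for *Slc2a1* and 18.5 ± 0.720 CPM per kb for *Slc2a3*. GLUT1 transcripts thus made up 73.8% ± 0.870 of the pair in hNK and 38.9% ± 1.62 in teNK (SD, n = 4; exact permutation p = 0.0286, adjusted p = 0.0444 over 14 shares).

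**Figure D2:**
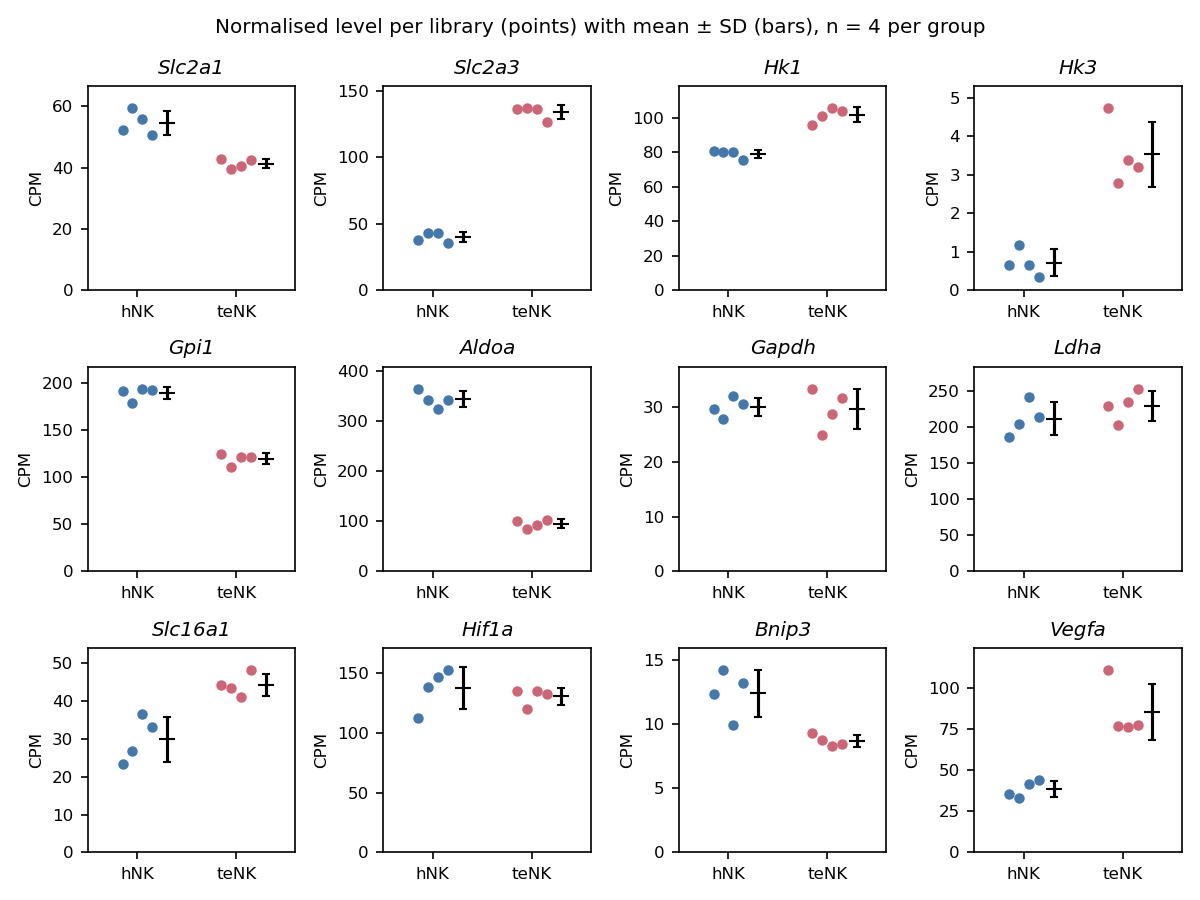
CPM in each library (points; hNK blue, teNK red) for 12 members, with the mean and SD of each group as bars (n = 4); every axis starts at 0. *Slc2a3*, *Hk3* and *Vegfa* were higher and *Aldoa*, *Gpi1* and *Slc2a1* lower in all 4 teNK libraries, while *Gapdh*, *Ldha* and *Hif1a* overlapped.

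Of the hexokinases, which phosphorylate glucose, *Hk1* and *Hk3* rose and *Hk2* did not pass the test. *Hk1*, the isozyme found in most tissues, carried 80.6, 80.04, 79.8 and 75.2 CPM in hNK and 95.7, 101, 106 and 104 CPM in teNK. The groups did not overlap (log2 fold change 0.36, SE 0.06, adjusted p = 9.23e-05). *Hk3* (ENSMUSG00000025877, chr13:55005985-55021385, - strand), an isozyme best known from myeloid cells, was close to the level of 3 counts in hNK. It had 29 reads over the 4 hNK libraries, at 0.665, 1.19, 0.660 and 0.361 CPM, and 200 reads in teNK, at 4.74, 2.79, 3.37 and 3.21 CPM. All teNK libraries were higher, and teNK 1 was highest, as it was for the summed neutrophil genes (7.70 CPM). Within hNK, *Hk3* was highest in hNK 2. The neutrophil sum was 0, 0, 0.165 and 0 CPM in hNK 1 to 4, too low to be compared with *Hk3* by library. A link with neutrophil RNA was not tested. The fitted log2 fold change was 2.15 (SE 0.31, adjusted p = 2.22e-05), with the limit set by the read filter given above. *Hk2*, the inducible isozyme and a HIF target, was at 4.91, 4.84, 6.76 and 7.05 CPM in hNK and 3.69, 3.11, 5.30 and 4.36 CPM in teNK. The value of teNK 3 lay inside the hNK range, and the log2 fold change was -0.48 (SE 0.21, adjusted p = 0.0599). Without hNK 1, hNK 2 or teNK 3 the adjusted p of *Hk2* was 0.0410, 0.0451 and 0.0258, so its call rests on which libraries are kept. As a share of the length-scaled sum of the 3 isozymes, *Hk1* was 88.7% ± 1.42 in hNK and 87.8% ± 1.99 in teNK (exact permutation p = 0.514, adjusted p = 0.6). The *Hk2* share was 9.48% ± 2.00 and 5.06% ± 0.967 (exact permutation p = 0.0286, adjusted p = 0.0444; SD, n = 4). The *Hk3* share, 1.86% ± 0.879 and 7.10% ± 1.83, restates the reads given above and is a description only.

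The upper steps, from phosphoglucose isomerase to triose phosphate isomerase, held the largest fall among the members. *Aldoa* (ENSMUSG00000030695, chr7:126795234-126800751, - strand), the main aldolase of muscle and blood cells and a HIF target, was at 365, 342, 325 and 343 CPM in hNK and 101, 84.3, 92.1 and 103 CPM in teNK. Every teNK library lay far below the lowest hNK library. The means were 344 ± 16.1 and 95.2 ± 8.72 CPM (SD, n = 4), a 3.61-fold fall (log2 fold change -1.85, SE 0.07, adjusted p = 3.61e-12), which ranked 261 from the lowest of the 13903 genes. A second identifier named *Aldoa* had 14 reads in hNK and 31 in teNK and was not tested. *Aldoc*, the brain-type aldolase, was near 1 CPM in both groups (1.11 ± 0.505 and 0.739 ± 0.414 CPM, adjusted p = 0.370), and *Aldoa* made up 99.7% ± 0.143 of the length-scaled pair in hNK and 99.3% ± 0.329 in teNK. *Gpi1* (ENSMUSG00000036427, chr7:34201330-34230336, - strand), phosphoglucose isomerase, was at 192, 179, 194 and 192 CPM in hNK and 125, 111, 121 and 121 CPM in teNK. All teNK libraries were lower (log2 fold change -0.66, SE 0.06, adjusted p = 1.16e-07). *Tpi1*, which interconverts the products of aldolase, was 42.2, 46.9, 44.4 and 50.04 CPM in hNK and 42.3, 34.8, 36.95 and 41.3 CPM in teNK, with overlapping groups (log2 fold change -0.23, SE 0.08, adjusted p = 0.0254). The *Tpi1* call was lost without hNK 2, hNK 4, teNK 2 or teNK 3 (adjusted p = 0.0581, 0.0714, 0.0924 and 0.0762) and with DESeq2 (adjusted p = 0.0671). It was also lost with libraries thinned to equal depth (adjusted p = 0.0824).

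The phosphofructokinase genes, which encode the committed step, changed in composition. *Pfkp*, the platelet-type subunit and the most abundant of the 3 here, fell from 297, 282, 292 and 338 CPM in hNK to 243, 256, 249 and 238 CPM in teNK (log2 fold change -0.29, SE 0.07, adjusted p = 0.00135). *Pfkl*, the liver type, rose from 26.1, 27.2, 23.7 and 23.3 to 32.6, 34.03, 33.1 and 32.9 CPM (log2 fold change 0.39, SE 0.08, adjusted p = 5.75e-04). *Pfkm*, the muscle type, was at 4.57, 2.54, 3.30 and 4.34 CPM in hNK and 5.002, 5.21, 6.67 and 5.27 CPM in teNK. For none of the 3 did the groups overlap. *Pfkm* rose by 0.60 on the log2 scale (SE 0.20, adjusted p = 0.0224), a call lost without hNK 2 (0.41, adjusted p = 0.104) or teNK 3 (0.50, adjusted p = 0.0692) and with library size alone (0.47, adjusted p = 0.0707). The *Pfkm* call was also lost with libraries thinned to equal depth (0.47, adjusted p = 0.158) and with hNK 3 and 4 as the only hNK libraries (0.53, adjusted p = 0.0939). Of the length-scaled sum, *Pfkp* took 82.2% ± 1.48 in hNK and 73.5% ± 0.665 in teNK, *Pfkl* 13.8% ± 1.71 and 19.9% ± 0.371, and *Pfkm* 4.00% ± 0.871 and 6.63% ± 0.826 (each exact permutation p = 0.0286, adjusted p = 0.0444; SD, n = 4). The bifunctional enzymes that set the level of fructose 2,6-bisphosphate, the activator of phosphofructokinase, moved apart. *Pfkfb3*, at 38.3, 35.7, 37.8 and 41.4 CPM in hNK, was 45.1, 42.7, 45.1 and 44.7 CPM in teNK (log2 fold change 0.22, SE 0.07, adjusted p = 0.0150). *Pfkfb4* fell from 3.41, 3.34, 3.96 and 3.43 to 1.65, 2.29, 1.61 and 2.06 CPM (log2 fold change -0.87, SE 0.21, adjusted p = 0.00241). The groups overlapped for neither gene, though the *Pfkfb3* call was lost without hNK 2 (0.18, adjusted p = 0.0603), with hNK 3 and 4 as the only hNK libraries (0.16, adjusted p = 0.140) and with library size alone (0.09, adjusted p = 0.310). The *Pfkfb3* share of the pair was 87.5% ± 1.09 in hNK and 93.8% ± 1.16 in teNK (exact permutation p = 0.0286, adjusted p = 0.0444).

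**Figure D3:**
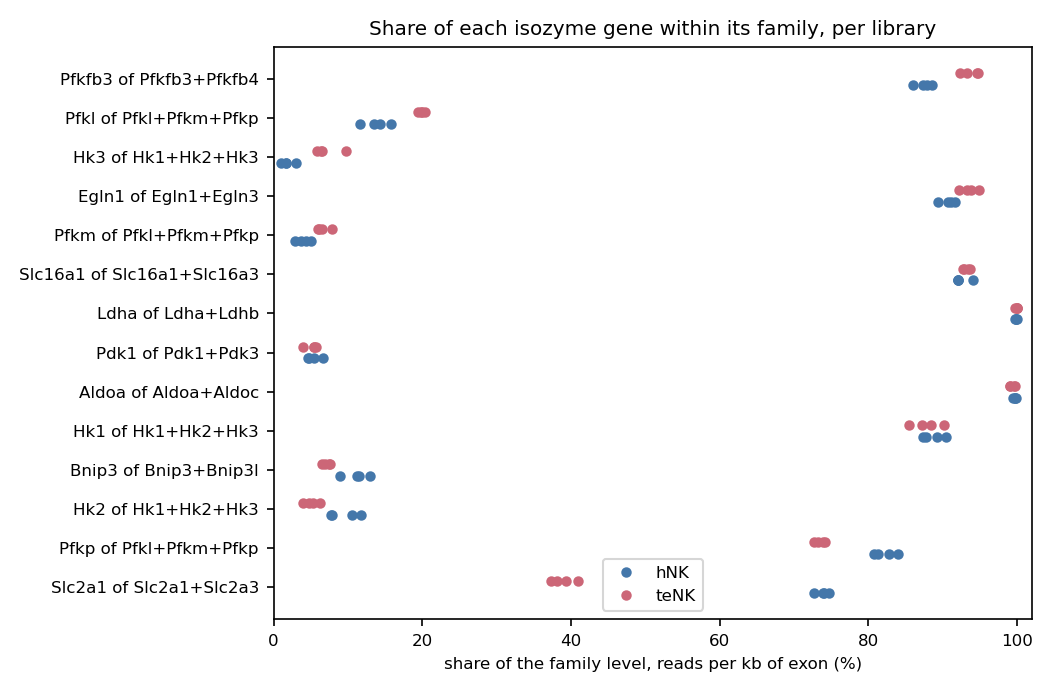
Share of each isozyme gene in the length-scaled level summed over its family (x axis, percent), with a point for each library (hNK blue, teNK red), ordered by the difference between groups. The largest difference was for *Slc2a1* among the glucose transporters, 73.8% in hNK and 38.9% in teNK.

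In the lower steps, from glyceraldehyde phosphate to pyruvate, 1 of 5 genes was called. *Pgk1*, phosphoglycerate kinase, fell from 63.1, 66.1, 86.7 and 85.1 CPM in hNK to 54.1, 51.1, 56.6 and 57.4 CPM in teNK without overlap (log2 fold change -0.44, SE 0.10, adjusted p = 9.99e-04). For *Pgk1*, hNK 3 and 4, the libraries with the fewest reads on genes, stood above hNK 1 and 2. Over the alternatives its log2 fold change ran from -0.66 to -0.25. *Gapdh*, often used as a reference transcript, was 29.6, 27.9, 31.99 and 30.5 CPM in hNK and 33.3, 24.95, 28.7 and 31.6 CPM in teNK. Its groups overlapped (log2 fold change -0.01, SE 0.10, adjusted p = 0.938). *Pgam1* (phosphoglycerate mutase) was 23.8 ± 3.35 and 22.1 ± 2.03 CPM (adjusted p = 0.454), and *Pkm* (pyruvate kinase) 197 ± 8.51 and 193 ± 14.9 CPM (adjusted p = 0.751). *Eno1* (enolase) was 197 ± 12.1 and 174 ± 16.6 CPM, with an adjusted p of 0.0562 that came to 0.0289 without hNK 1 and 0.0228 without teNK 4. These genes share sequence with other annotated transcripts, so their levels are uncertain. The share of 50-base words in a gene's transcripts that also occur in transcripts of other genes was 53.9% for *Pgk1*, 36.2% for *Pgam1*, 26.0% for *Eno1*, 25.8% for *Pkm* and 25.1% for *Gapdh*, against 6.43% for *Aldoa*, 1.26% for *Slc2a3* and 0.18% for *Vegfa*. For *Pkm* part of this lies at its own locus, where 15.3% of its exon bases overlap 1 other gene on the same strand.

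Among the 15 genes for the 10 enzymatic steps from hexokinase to pyruvate kinase, 4 rose, 5 fell and 6 were not called. Of these 15, 60.0% were called, against 51.9% of all genes tested. Their summed level was 1519 ± 57.8 CPM in hNK and 1122 ± 46.2 CPM in teNK (SD, n = 4). Without *Aldoa* the sums were 1176 ± 59.6 and 1027 ± 38.4 CPM, so *Aldoa* alone made up most of the difference. In hNK, *Aldoa* had the highest level per length (118 ± 5.53 CPM per kb), followed by *Ldha* (63.7 ± 6.89), *Bnip3l* (43.6 ± 4.42), *Pkm* (39.4 ± 1.70), *Eno1* (36.6 ± 2.24) and *Pgk1* (33.5 ± 5.52). In teNK, *Ldha* was first (69.2 ± 6.29 CPM per kb), then *Bnip3l* (50.1 ± 2.03), *Pkm* (38.6 ± 2.98), *Aldoa* (32.7 ± 2.997) and *Eno1* (32.4 ± 3.09). The neighbours from *Bnip3l* to *Pgk1* in hNK, and from *Pkm* to *Eno1* in teNK, were closer than their SDs combined.

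**Figure D4:**
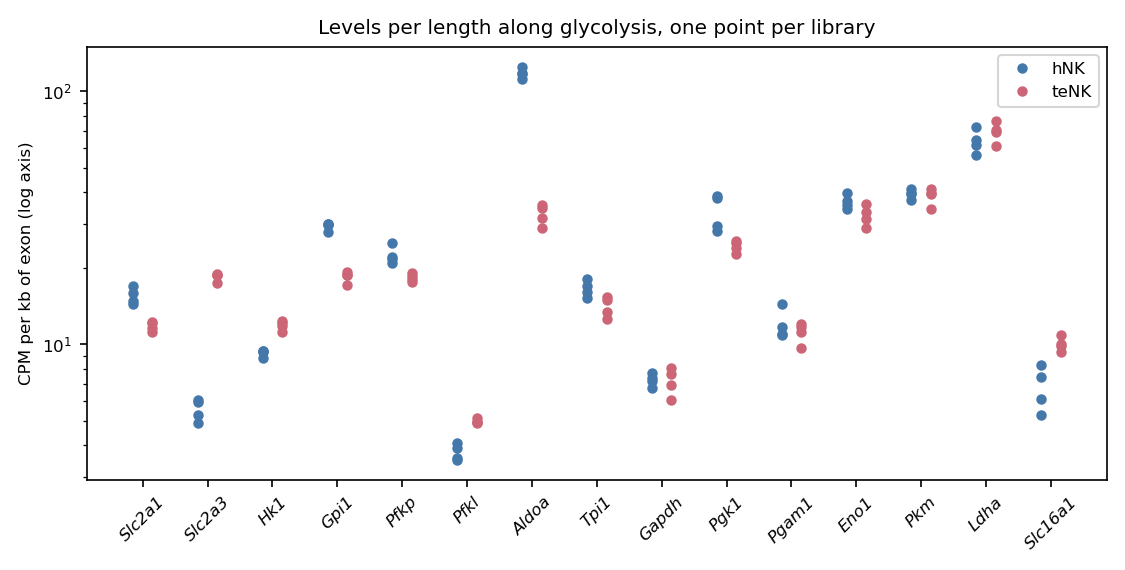
Level per length (CPM per kb of exon, log axis) of 15 members in the order of the pathway, with a point for each library (hNK blue, teNK red). *Aldoa* stood highest in hNK at 118 CPM per kb and fell to 32.7 in teNK, and *Slc2a3* passed *Slc2a1* in teNK.

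At the end of the pathway, the lactate transporters rose and lactate dehydrogenase did not pass the test. *Ldha*, the subunit that favours lactate formation, was 186, 203, 240.5 and 214 CPM in hNK and 229, 202, 234 and 252 CPM in teNK. The groups overlapped (log2 fold change 0.12, SE 0.08, adjusted p = 0.221), and its size depended on the setting: the log2 fold change was -0.01 (adjusted p = 0.937) with libraries scaled by total alone and 0.23 (adjusted p = 0.0432) with hNK 1 and 2 as the only hNK libraries. *Ldhb*, the other subunit, had 6 reads over the 4 hNK libraries and 7 over the 4 teNK libraries, too few to test, and no fold is given. *Slc16a1* (ENSMUSG00000032902, chr3:104638668-104658462, + strand), the lactate transporter MCT1, rose from 23.4, 26.8, 36.6 and 33.1 CPM in hNK to 44.3, 43.6, 41.2 and 48.3 CPM in teNK. No libraries overlapped (log2 fold change 0.60, SE 0.11, adjusted p = 2.85e-04). Here too hNK 3 and 4 stood above hNK 1 and 2. The log2 fold change of *Slc16a1* ran from 0.34 to 0.81 over the alternatives. *Slc16a3*, the exporter MCT4 and a HIF target, was lower in level, at 2.41, 2.78, 2.80 and 3.43 CPM in hNK and 3.62, 4.00, 3.53 and 4.59 CPM in teNK (log2 fold change 0.49, SE 0.20, adjusted p = 0.0446). Although its groups did not overlap, the call held in only 4 of 19 alternatives: the adjusted p was 0.129, 0.0940 and 0.0673 without hNK 1, 2 or 3, and 0.0568, 0.0765 and 0.118 without teNK 1, 2 or 4. The kinases that inhibit pyruvate dehydrogenase were not called: *Pdk1* was 4.21 ± 0.823 and 3.93 ± 0.523 CPM (adjusted p = 0.806) and *Pdk3* 24.4 ± 2.76 and 23.9 ± 2.74 CPM (adjusted p = 0.859).

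Of the 3 oxygen-sensing genes, 1 rose and none fell (33.3% called, against 51.9% of all genes tested). *Hif1a*, the oxygen-regulated subunit, was 112, 138, 147 and 153 CPM in hNK and 135, 119.9, 135 and 132 CPM in teNK. These overlapped (log2 fold change -0.07, SE 0.08, adjusted p = 0.518), but without hNK 1, the lowest of its group, the log2 fold change was -0.16 (adjusted p = 0.0463). Since HIF-1 alpha is regulated mainly as a protein, this transcript does not measure it. *Egln1*, the prolyl hydroxylase PHD2, rose from 60.9, 63.3, 62.8 and 63.8 CPM in hNK to 72.99, 76.3, 87.97 and 88.5 CPM in teNK, without overlap (log2 fold change 0.38, SE 0.07, adjusted p = 3.81e-04). *Egln3* (PHD3), which HIF strongly induces in many cells, was 4.77 ± 0.560 and 4.16 ± 0.771 CPM (adjusted p = 0.361). The *Egln1* share of the pair was 90.7% ± 0.939 in hNK and 93.5% ± 1.14 in teNK (exact permutation p = 0.0286, adjusted p = 0.0444).

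The other HIF targets were divided, with 4 higher, 2 lower and 2 not called (75.0% called, against 51.9% of all genes tested). *Vegfa* (ENSMUSG00000023951, chr17:46016993-46032369, - strand), the angiogenic growth factor, was 35.6, 33.4, 41.4 and 43.9 CPM in hNK and 111, 77.02, 76.2 and 77.6 CPM in teNK. All teNK libraries were higher, and teNK 1 stood above the other 3, as it did for the summed neutrophil genes (7.70 CPM, against 1.71 to 3.29 CPM in the other teNK libraries). Within hNK, *Vegfa* was highest in hNK 4. The neutrophil sum was 0, 0, 0.165 and 0 CPM in hNK 1 to 4, too low to be compared with *Vegfa* by library. A link with neutrophil RNA was not tested. The log2 fold change was 1.17 (SE 0.12, adjusted p = 5.46e-07), and without teNK 1 it was 1.02 (adjusted p = 2.34e-07). *P4ha1* (ENSMUSG00000019916, chr10:59323296-59373304, + strand), a collagen prolyl hydroxylase subunit whose promoter window is printed above, rose from 36.3, 33.03, 28.7 and 33.2 CPM in hNK to 59.6, 60.2, 55.99 and 46.5 CPM in teNK (log2 fold change 0.75, SE 0.09, adjusted p = 4.29e-06). *Higd1a* (ENSMUSG00000038412, chr9:121848563-121858362, - strand), a protein of the mitochondrial inner membrane, rose from 32.1, 32.4, 31.8 and 28.2 to 53.6, 46.03, 48.8 and 49.98 CPM (log2 fold change 0.66, SE 0.08, adjusted p = 1.80e-06). For *P4ha1* and *Higd1a* no libraries overlapped. Of the *Higd1a* words, 24.4% occurred in transcripts of other genes.

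The mitophagy receptors of this group moved apart. *Bnip3* (ENSMUSG00000078566, chr7:138890836-138909519, - strand), whose window held the most matches of those printed, fell from 12.3, 14.2, 9.90 and 13.2 CPM in hNK to 9.28, 8.76, 8.27 and 8.41 CPM in teNK (log2 fold change -0.53, SE 0.13, adjusted p = 0.00250). *Bnip3l* rose from 161, 191, 171 and 151 to 192, 185, 204 and 193 CPM with overlapping groups (log2 fold change 0.20, SE 0.07, adjusted p = 0.0291), and the call was lost without hNK 1, hNK 4, teNK 3 or teNK 4 (adjusted p = 0.0586, 0.0990, 0.0845 and 0.0510), and also with hNK 1 and 2 as the only hNK libraries (0.13, adjusted p = 0.215). The *Bnip3l* call depended on the scaling too: it was lost with library size alone (0.07, adjusted p = 0.392) and with upper quartile factors (0.16, adjusted p = 0.0531). *Bnip3* is a difficult gene to count, since 47.2% of its words occurred in other genes' transcripts, against 20.8% for *Bnip3l*. Its share of the pair was 11.2% ± 1.65 in hNK and 7.12% ± 0.530 in teNK (exact permutation p = 0.0286, adjusted p = 0.0444). *Ndrg1*, a stress-responsive gene, fell from 22.3, 21.3, 22.8 and 18.8 CPM in hNK to 17.05, 15.6, 19.8 and 13.3 CPM in teNK, where teNK 3 lay inside the hNK range (log2 fold change -0.38, SE 0.12, adjusted p = 0.0120). *Mxi1*, a MYC antagonist, was 24.3 ± 1.67 and 26.8 ± 2.08 CPM (adjusted p = 0.236). *Ankrd37* was near 1 CPM in both groups, at 1.06 ± 0.637 and 1.06 ± 0.301 CPM (adjusted p = 0.811).

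Of the 14 isozyme shares compared over 10 families, 9 differed between groups without overlap, the *Hk3* share, given as a description only, among them, all at the smallest p that 4 against 4 libraries allow (0.0286 by exact 2-sided permutation). The shares of a family are tied, since they add to 100%, and they rest on the same reads as the tests of single genes. Their adjusted p of 0.0444 depends on how many of the 14 shares sit at this smallest p together. The *Hk3* share and the tied phosphofructokinase shares are counted there, so the call of each share leans on the others. The shares of *Hk1*, *Aldoa*, *Ldha*, *Slc16a1* and *Pdk1* did not pass the threshold, with adjusted p between 0.120 and 0.743.

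The rest of the same pathways, 69 further genes in 5 lists, were also split: of 52 tested, 12 rose, 13 fell and 27 were not called. The share called was 48.1%, against 51.9% of all genes tested. Of 14 other glycolysis genes, 5 rose and 2 fell. *Slc2a6*, a further glucose transporter, rose from 5.20 ± 1.32 to 13.6 ± 2.28 CPM (log2 fold change 1.45, adjusted p = 4.60e-06). *Mlxip*, the glucose-sensing transcription factor MondoA, rose from 121 ± 8.22 to 221 ± 20.8 CPM (adjusted p = 5.37e-08), and its target *Txnip*, an inhibitor of glucose uptake, from 408 ± 56.6 to 529 ± 44.3 CPM (adjusted p = 0.00259) with overlapping groups. The transporter *Slc2a8* fell from 7.34 ± 1.62 to 3.74 ± 0.149 CPM (adjusted p = 1.94e-04) and *Adpgk*, an ADP-dependent glucokinase, from 31.9 ± 3.49 to 22.4 ± 1.30 CPM (adjusted p = 2.72e-04). Among genes for pyruvate transport and pyruvate dehydrogenase, 1 of 12 rose (*Pdhb*, log2 fold change 0.25) and 2 fell (*Pdp1*, -0.27, and *Pdhx*, -0.30), or 25.0% called.

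In the pentose phosphate pathway, which branches from glucose 6-phosphate to make NADPH and ribose, 4 of 7 genes fell and none rose, against the 25.6% of all genes that fell. *G6pdx*, the entry enzyme, fell from 90.8 ± 8.63 to 48.5 ± 3.68 CPM (SD, n = 4; log2 fold change -0.90, SE 0.08, adjusted p = 7.65e-08). *Rpia* fell from 45.9 ± 6.03 to 31.01 ± 1.61 CPM (adjusted p = 5.77e-05) and *Pgls* from 20.9 ± 3.32 to 14.5 ± 2.34 CPM (adjusted p = 0.00214); *Rpia* makes ribose 5-phosphate and *Pgls* acts just after *G6pdx*. Of 6 further genes of the HIF pathway, 2 rose and 1 fell. *Epas1*, which encodes HIF-2 alpha, rose from 2.96 ± 0.907 to 7.84 ± 1.81 CPM (log2 fold change 1.5, SE 0.23, adjusted p = 3.88e-05) and *Cited2*, which competes with HIF-1 alpha for a coactivator, from 71.1 ± 9.29 to 116 ± 7.91 CPM (adjusted p = 2.62e-06). *Vhl*, which marks HIF alpha subunits for destruction, fell from 34.2 ± 1.42 to 27.8 ± 0.794 CPM (adjusted p = 0.00245).

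Of 13 further hypoxia-induced genes, 4 rose and 4 fell (61.5% called, against 51.9% of all genes tested). *Bhlhe40*, a transcriptional repressor, rose from 418 ± 38.7 to 742 ± 55.4 CPM (log2 fold change 0.83, SE 0.08, adjusted p = 1.80e-07). *Stc2* (stanniocalcin 2) fell from 29.4 ± 6.93 to 7.93 ± 1.19 CPM (log2 fold change -1.85, SE 0.15, adjusted p = 3.72e-08). *Ero1l*, an oxidase of the endoplasmic reticulum, fell from 54.2 ± 4.03 to 37.3 ± 1.82 CPM (adjusted p = 1.60e-05), and *Gys1*, glycogen synthase, from 14.96 ± 2.52 to 9.13 ± 0.236 CPM (adjusted p = 1.70e-04). *Ccng2* (cyclin G2) rose from 69.98 ± 7.85 to 105 ± 4.21 CPM (adjusted p = 8.74e-06) and *Plod2*, a collagen lysyl hydroxylase, from 52.9 ± 3.04 to 73.3 ± 4.86 CPM (adjusted p = 3.07e-05). The hypoxia markers *Car9* and *Adm* had too few reads to be tested.

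**Figure D5:**
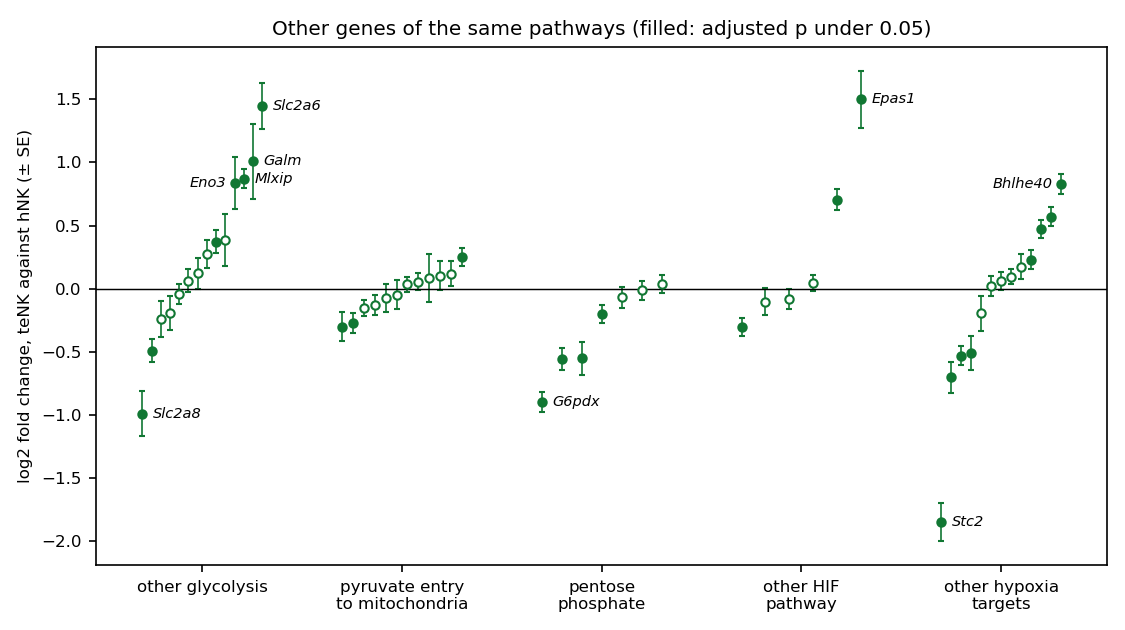
Log2 fold change of teNK against hNK with its standard error for the 52 tested genes of the 5 further lists; filled points passed the adjusted p threshold, and genes beyond 0.8 in either direction are named. *Epas1* and *Slc2a6* rose most and *Stc2* fell most, at a log2 fold change of -1.85.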

How the data were processed

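RNA of 8 libraries was sequenced, 4 of hNK and 4 of teNK, grouped by the mouse model in the labels. The authors deposited 1 file per library of raw whole-number read counts per Ensembl gene. Its 5 summary lines were kept out of library sizes and tests. Of the reads on genes and on these lines, 32.3% to 41.2% lay in no gene and 1.52% to 2.07% were ambiguous. The lines for low-quality, unaligned and non-unique reads held 0 reads in every library. How reads with several alignments were treated is therefore not shown. Per the submitters' processing notes, HISAT2 2.1.0, SAMtools, HTSeq and GRCm38 were used; the library kit was stranded per the labels' protocols, but how the counting used strand and which annotation release it used are not given in the sources used here, so reads of antisense neighbours cannot be told apart. Symbols came from GENCODE M21, which matched 54809 of 54838 identifiers. Of 27313 genes with a read, 13903 passed filterByExpr by group and were fitted in edgeR 4.0.16 (R 4.3.3; TMM scaling, quasi-likelihood F test, group only) with Benjamini-Hochberg adjustment over all of them. CPM used TMM-scaled library sizes, and levels per length used the union of exons. Isozyme shares were compared by exact 2-sided permutation in Python 3.11.15. The fit was tested on simulated counts with known changes. It recovered 38% of 1.25-fold, 58% of 1.5-fold, 72% of 2-fold and 94% of 4-fold changes. Of its 144 calls there, 13 were false. The simulation changed 50 of 13903 genes at each fold, while 51.9% of genes were called in the data. Recovery and false calls depend on the share of genes that change, so these figures do not measure those of the real test.

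The members and gene lists were chosen with earlier results of these data known. All members are accounted for; values per library are given for called members and for *Slc2a1*, *Hk2*, *Gapdh*, *Ldha*, *Hif1a* and *Vegfa*, and up to 3 called genes per direction are named from each further list. *Eno3* and *Galm* (in a plot), *Car9* and *Adm* fall outside this rule and were chosen after their values were seen. The search for shared 50-base words, the exon limit on printed promoter windows and the NK sum without sort markers were likewise made after seeing the data. Alternatives were other scalings, DESeq2 1.42.0, limma-voom (limma 3.58.1), a test against 1.5-fold, other filters, thinning to 5202131 reads, a replicate block and leaving out libraries. Replicate libraries differed by more than sampling noise (chi-square per degree of freedom of 3.51 to 11.3 over genes with at least 20 reads), and all 8 were counted. No label states that replicates are separate animals, so the p-values describe library-to-library spread, which may be technical. Floors and shares of counts cover counting error only.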

Additional observations from a re-analysis of the deposited data

Results flagged for a closer look

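Of 70 groups of 4 libraries screened (35 tested members in each group), 7 held a library far from the other 3 by Dixon's test at 95%, which chance flags in about 1 in 20 groups. *Slc2a3* was 126.3 CPM in teNK 4, against 136.3 to 137 CPM in the other teNK libraries. *Vegfa* was 111 CPM in teNK 1, against 76.2 to 77.6 CPM, and *Pfkm* was 6.67 CPM in teNK 3, against 5.002 to 5.27 CPM. In hNK 4, *Hk1* was 75.2 CPM (others 79.8 to 80.6) and *Higd1a* 28.2 CPM (others 31.8 to 32.4). *Gpi1* was 179 CPM in hNK 2 (others 192 to 194), and *Pfkfb4* was 3.96 CPM in hNK 3 (others 3.34 to 3.43). In each case the library stayed on its own group's side of the other group's range.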

How the results depend on the processing

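Of the 22 called members, 4 kept their call under every alternative that gave them a value. Another 11 kept it under all of these but the test against a 1.5-fold change. The remaining 7 lost it under at least one other alternative, and none changed direction. The stricter filter left *Hk3* (of the 4), *Pfkfb4* (of the 11) and *Slc16a3* (of the 7) without a value. Against a 1.5-fold change, 1297 genes were higher and 850 lower, 3 members were higher and 1 lower, and 4 genes of the further lists were higher and 3 lower. The threshold itself makes this test stricter. Leaving out 1 library at a time gave 3380 to 3766 genes higher and 3203 to 3497 lower, 10 to 12 members higher and 8 to 12 lower, and 11 to 14 genes of the further lists in each direction. With the replicate number as a block, 3581 genes were higher and 3401 lower, 12 members higher and 11 lower (*Eno1* and *Hk2* gained, *Slc16a3* lost), and 12 genes of the further lists in each direction. Same-numbered libraries deviated together only weakly (correlations 0.045, -0.107, 0.145 and 0.018), so the numbers were not taken to pair libraries; not every library correlated best with its own number.

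With only hNK 3 and 4, *Bnip3* (adjusted p = 0.0586) and *Ndrg1* (adjusted p = 0.0756) were no longer called. Members that were not called changed sign under some alternatives, each time without being called. *Gapdh* had a log2 fold change of 0.0083 with DESeq2, 0.0385 with hNK 1 and 2 only, and 0.0091 to 0.0707 without hNK 3, teNK 2 or teNK 3 (0.0215 without hNK 3). With hNK 1 and 2 only, *Pkm* was 0.0070, *Pdk1* 0.0676, *Pdk3* 0.0194 and *Hif1a* 0.0521. *Pkm* was 0.0289 without teNK 2, and *Pdk1* was 0.0503 without hNK 4 and 0.0032 without teNK 3. *Pdk3* was 0.0247 and 0.0028 without hNK 2 and hNK 3, and 0.0004 and 0.0460 without teNK 1 and teNK 2. With library size alone, *Ldha* was -0.0082 and *Ankrd37* -0.0087. *Ankrd37* was -0.1619 without hNK 2, -0.0693 without teNK 1 and -0.3585 with hNK 3 and 4 only. Over all 8 settings without 1 library, the lowest value was -0.0680 for *Gapdh*, -0.0589 for *Pkm*, -0.1386 for *Pdk1* and -0.1173 for *Pdk3*, and the highest for *Ankrd37* was 0.4888. The cause was not tested.

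The isozyme shares that passed the threshold, with *Hk3* among them as a description only, also passed it with plain counts and with the longest transcript as length. In a family that is a pair of genes, length scaling cannot change the order of the libraries. Where such a share separated the groups, its exact p was therefore fixed in advance, and passing again adds no support. The size depended on the length scaling: with plain counts the difference in share was 2.41 points for *Hk3* (5.23 with exon lengths), 0.835 for *Pfkm* (2.62) and -4.84 for *Pfkp* (-8.71). The *Hk1* share, not past the threshold, was higher in teNK by 0.737 points with plain counts, and the *Pdk1* share by 0.209 and 0.161 points without hNK 4 and teNK 3; without 1 library the *Pdk1* difference ran from -0.477 to 0.209 points. An exact test of 4 against 3 libraries cannot go below 0.0571, and the paired one, with a replicate block, not below 0.125 (the value for *Slc2a1*), so these settings were read as values only. Low depth limits *Hk3*, *Aldoc*, *Ankrd37* and *Ldhb*.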
